A study of Danio rerio with 3 samples.

Results

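Genes of sterol synthesis, sterol uptake and ketone body use, 10 in all, were followed in zebrafish embryos injected with MO-grnA and in untreated wild-type embryos. They were aacs, hmgcra, hmgcs1, sqlea, ldlra, cyp51, dhcr7, fdft1, lss and srebf2. The genes were found on the arrays through the transcript accession of each probe, which matched 8 of the genes with 12 of 43603 probes. No probe was matched to sqlea or fdft1, so these genes were not analysed here. Of the 12 probes, 10 probes of 6 genes could be tested, among 25066 tested probes and 9227 named genes in all. The other 2 are an ldlra probe that was not well above background and an lss probe whose spot was marked as uneven on 1 array.

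MO-grnA is a morpholino, a synthetic antisense strand that blocks a transcript's translation or splicing, and is named here for grna, a zebrafish progranulin gene. Morphants received 2 to 3 nl at the 1-cell stage, the wild-type embryos are labelled as having had no treatment, and both were collected at 22 hours post fertilization (hpf). Each of 3 biological replicates compared morphant with wild-type RNA on 1 Agilent array with 2 colours, and the groups are described as 200 embryos each. Replicates 1 and 2 had morphant RNA in Cy5, and replicate 3, titled a dye swap and described as the third biological replicate, had it in Cy3. Replicate 1 was on a slide of its own while replicates 2 and 3 shared the other. No control morpholino is among these samples, so injection itself is part of every ratio, and in whole embryos fewer cells of a type and less RNA per cell cannot be told apart.

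Cholesterol is built in the cytosol and endoplasmic reticulum from acetyl-CoA, first to mevalonate and its isoprenoid products, then to squalene, and then through a series of ring-forming, demethylating and reducing steps. SREBP transcription factors raise the genes of this route and of LDL uptake together when membrane sterol is low. Ketone bodies are made from the same HMG-CoA intermediate in mitochondria. Acetoacetyl-CoA synthetase, the product of aacs, activates the ketone body acetoacetate in the cytosol for lipid synthesis. In fish embryos the yolk also supplies cholesterol to the growing tissues.

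The 6 sterol and ketone body genes that could be tested did not all move one way in morphants. A cyp51 probe was 14.8-fold higher, yet the other cyp51 probe did not pass the test. Both dhcr7 probes fell to about the same extent, and the brighter aacs probe rose, with most of its size on 1 array. Taking the brightest probe of each gene, 1 of 6 tested genes (aacs) rose, 1 (dhcr7) fell and 4 did not pass at an adjusted p of 0.05. Among all 9227 named genes 41.3% passed, 19.3% higher and 22.0% lower, so 2 of 6 is no larger a share. By probe, 4 of 10 passed, 2 higher and 2 lower, where 37.6% of all tested probes did (18.0% higher and 19.6% lower). The median log2 ratio over the 6 genes was 0.08, close to the -0.00077 over all named genes.

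**Figure D1:**
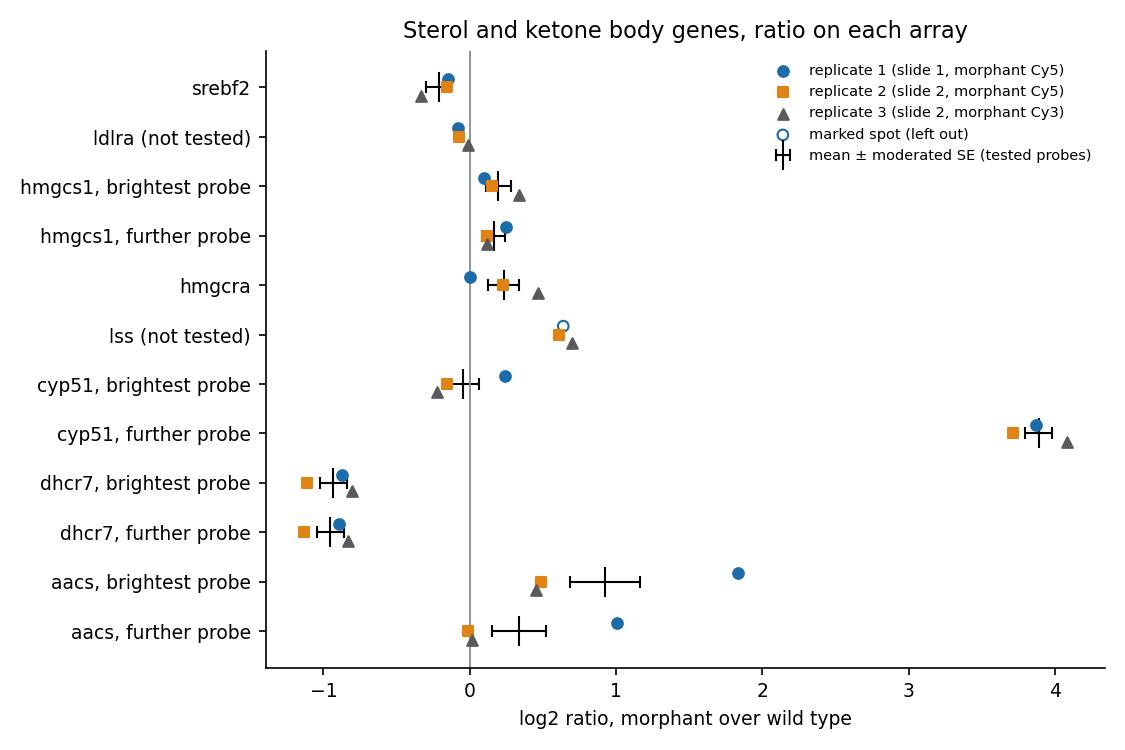
Log2 ratio of morphant over wild type (horizontal axis) for each of the 12 probes, with 1 point per array and a line with bars for the mean and moderated standard error of tested probes. The further cyp51 probe lies near 3.89 on all 3 arrays, both dhcr7 probes lie near -0.9, and for both aacs probes replicate 1 stands apart from replicates 2 and 3.

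The libraries and the targeted gene set the scale for these values. Of 43803 spots per array, 28635 to 31551 stood well above background for morphant RNA and 28822 to 31010 for wild-type RNA. Replicate 1 stood apart, with 7.49% of its spots marked, against 0.915% and 0.909% on replicates 2 and 3. Its median intensity before normalization was 446.5 for morphant and 191 for wild-type RNA. The medians were 153 and 110.5 on replicate 2, and 114 and 170 on replicate 3. Ratios of the arrays correlated across probes at r = 0.818 to 0.851, with replicate 3 turned to the direction of the others. For grna the normalized intensity was 727, 659 and 733 in morphants, against 636, 522 and 558 in wild type. That is a log2 ratio of 0.31 (SE 0.08, n = 3, adjusted p = 0.0227), higher on each array. Leaving out replicate 2 or replicate 3 ended this call (adjusted p = 0.107 and 0.109), as did median centring (adjusted p = 0.424). A morpholino need not lower its target's transcript, so this probe does not check the labels.

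The transcription factor gene srebf2, which encodes the SREBP that acts mainly on cholesterol genes, was slightly lower without passing the test. Its normalized intensity was 41887, 31361 and 23519 in morphants on replicates 1, 2 and 3, against 46487, 34865 and 29632 in wild type. Arrays differed more than the channels of an array did, and on each array the morphant value was the lower one. The log2 ratio was -0.21 (SE 0.08, n = 3, adjusted p = 0.0821). For ldlra, the gene of the LDL receptor that takes up cholesterol-carrying particles, neither channel was well above background on any array. Morphant intensities were 62.0, 64.2 and 71.2, against 65.6, 67.4 and 71.9 in wild type, at which no fold can be read.

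The mevalonate genes hmgcs1 and hmgcra had ratios above 0 on each array and did not pass. The gene hmgcs1 encodes the cytosolic HMG-CoA synthase that opens the route. Its brightest probe gave 6291, 6910.0 and 7874 in morphants on replicates 1, 2 and 3, against 5888, 6218 and 6228 in wild type. The log2 ratio was 0.20 (SE 0.09, n = 3, adjusted p = 0.112), and the further hmgcs1 probe gave 0.16 (SE 0.08, adjusted p = 0.152). HMG-CoA reductase, the product of hmgcra, is the rate-limiting enzyme of the route and the target of statins. For hmgcra the intensity was 548, 378 and 445 in morphants, against 548, 322 and 322 in wild type. Replicate 1 showed no difference (log2 ratio 0.00073), while replicates 2 and 3 gave 0.23 and 0.46. Over 3 arrays the value was 0.23 (SE 0.10, adjusted p = 0.114). Within slide 2, that is without replicate 1, it was 0.35 (n = 2, adjusted p = 0.0162), and it passed in only this 1 of 12 alternatives.

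Past squalene, lss encodes lanosterol synthase, which closes the first sterol ring system. On the 2 arrays with an unmarked spot, lss gave 322 and 333 in morphants, against 211 and 205 in wild type. These are log2 ratios of 0.61 and 0.70, and the marked spot on replicate 1 gave 0.64. Because of the marked spot, lss was left out of the test over 3 arrays. Fitted on replicates 2 and 3 alone, a choice made after seeing the marked spot, the log2 ratio was 0.65 (SE 0.11, n = 2, adjusted p = 4.9e-05). Both of these arrays were on slide 2, so no difference between slides enters that p-value. In the same fit idi1, whose ratios lay further apart (0.16 and -0.14), also had an SE of 0.11. The SE therefore says little about the spread of lss itself. With marked spots kept on all arrays it was 0.65 (SE 0.08, n = 3, adjusted p = 8.5e-04).

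The 2 probes of cyp51, the gene of the lanosterol demethylase that starts the trimming of the sterol skeleton, gave different pictures. The further probe, A_15_P206356, had intensities of 2782, 2314 and 2278 in morphants, against 190.2, 177 and 135 in wild type. Every morphant value was over 10 times every wild-type value, and both channels were well above background on all 3 arrays. The log2 ratio of the further cyp51 probe was 3.89 (SE 0.09, n = 3, 14.8-fold, adjusted p = 8.9e-07), with 3.87, 3.71 and 4.08 on replicates 1, 2 and 3. Its rank was 4 from the top among 25066 tested probes. The rise passed under all 11 alternatives that could be run for the probe, at log2 ratios of 3.79 to 4.97 (adjusted p between 1.7e-17 and 0.00121).

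The brightest cyp51 probe, A_15_P106000, carries the same accession. Its intensities were 1258, 1004 and 866 in morphants, against 1064, 1115 and 1011 in wild type, with overlapping groups. Its log2 ratio was -0.04 (SE 0.11, n = 3, adjusted p = 0.773), above 0 on replicate 1 and below 0 on replicates 2 and 3. Within an array the further probe exceeded the brightest by 3.63, 3.87 and 4.30 on the log2 scale, a mean difference of 3.93 (SD 0.34, n = 3). Among the 2677 named genes with more than 1 tested probe, cyp51 had the widest spread between probes. The median spread was 0.19, and 14 genes (0.523%) had one of 2 or more. A single direction for cyp51 transcript therefore cannot be given from these arrays.

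**Figure D2:**
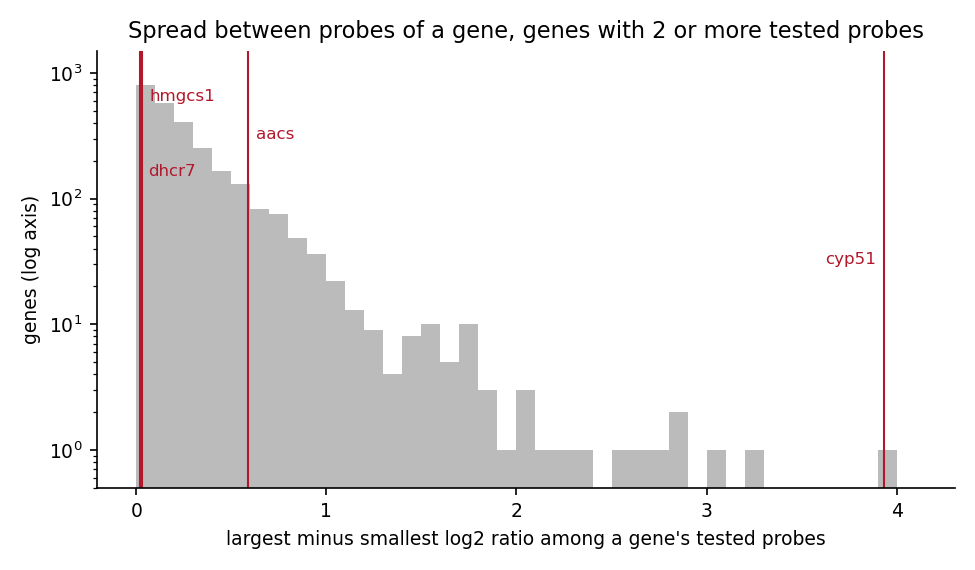
Number of genes (vertical, log axis) by the difference between the largest and the smallest log2 ratio among a gene's tested probes (horizontal axis), for the 2677 named genes with more than 1. Red lines mark dhcr7 (0.02), hmgcs1 (0.03), aacs (0.59) and cyp51 (3.93), and the cyp51 line is at the far right end.

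The gene dhcr7 encodes the reductase of the last step to cholesterol, and its transcript fell in morphants. The brightest probe gave 10112, 7157 and 7697 in morphants, against 18527, 15488 and 13461 in wild type, with the morphant value lower on each array. The log2 ratio was -0.93 (SE 0.09, n = 3, 1.91-fold lower, adjusted p = 2.1e-04), with -0.87, -1.11 and -0.81 on replicates 1, 2 and 3. The further dhcr7 probe ran between 7174 and 7780.3 in morphants, against 13874 and 15746.5 in wild type. Its log2 ratio was -0.95 (SE 0.09, adjusted p = 1.8e-04), 0.02 from the first. Agreement between probes of this size or closer was seen in few genes, since 7.13% of the 2677 genes had a smaller spread. The fall kept its call in 11 of 12 alternatives and lost it with median centring in place of loess, where the log2 ratio was -0.75 (adjusted p = 0.223).

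For aacs, whose product activates acetoacetate in the cytosol, the brighter probe gave 944, 292 and 286 in morphants on replicates 1, 2 and 3, against 265, 209 and 209 in wild type. The morphant value was higher on each array, but that of replicate 1 stood far above the others. The log2 ratio of aacs was 0.92 (SE 0.24, n = 3, 1.90-fold, adjusted p = 0.0193), made up of 1.83, 0.49 and 0.45. Within slide 2, without replicate 1, it was 0.47 (n = 2, adjusted p = 0.00134). A term for dye ended the call (0.81, adjusted p = 0.0858), and so did leaving out replicate 3 (1.16, adjusted p = 0.0547) or centring on the median (1.07, adjusted p = 0.200). The further aacs probe gave 251, 125 and 119 in morphants, against 125, 126 and 118 in wild type. Only replicate 1 showed a difference there, with a log2 ratio of 1.00 against -0.01 and 0.01 on replicates 2 and 3, and the mean of 0.33 did not pass (SE 0.19, adjusted p = 0.191). Slide 1 holds 1 array, so slide and replicate cannot be told apart in these values. That array also had the most marked spots (7.49%), although both aacs probes had an unmarked spot on it.

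**Figure D3:**
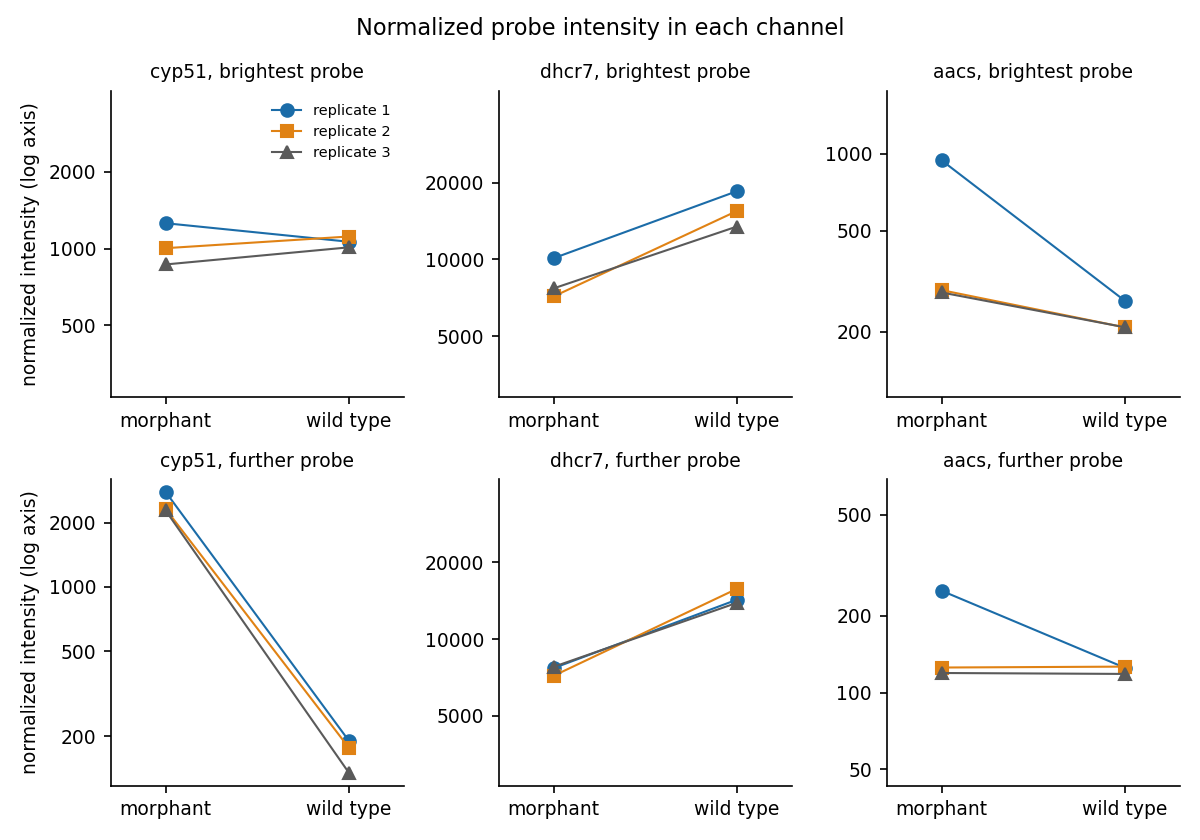
Normalized intensity (vertical, log axis) in the morphant and the wild-type channel of each array, joined by a line per replicate, for both probes of cyp51, dhcr7 and aacs. The further cyp51 probe drops steeply toward wild type on all 3 arrays, both dhcr7 probes climb, and the aacs probes separate mainly on replicate 1.

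Lists of the route, which include those of the 10 genes that could be tested, show where these genes stand within it. Of 8 tested genes of mevalonate and isoprenoid synthesis 2 rose, 1 fell and 5 did not pass, with a median log2 ratio of 0.15. That is 37.5% past the threshold, where 41.3% of all named genes passed (19.3% higher and 22.0% lower). Mevalonate kinase, the product of mvk, phosphorylates mevalonate. Its gene gave 676, 571 and 597 in morphants, against 1163, 859 and 1047 in wild type, lower on each array. The log2 ratio of mvk was -0.73 (SE 0.09, adjusted p = 5.2e-04), and the further mvk probe gave -0.55 (adjusted p = 0.00360). Among the later steps, mvda and fdps went the other way. The decarboxylase gene mvda rose by 0.58 (SE 0.09, adjusted p = 0.00169) and the farnesyl diphosphate synthase gene fdps by 0.40 (SE 0.08, adjusted p = 0.00710, but 0.0512 without replicate 3). The thiolase gene acat2 (0.05), the second reductase gene hmgcrb (0.11) and the kinase gene pmvk (-0.01) did not pass, and idi1, marked on replicate 1, gave 0.16 and -0.14 on replicates 2 and 3.

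From squalene to cholesterol, 4 of 10 tested genes rose, 1 (dhcr7) fell and 5 did not pass. Among those 5 is cyp51, counted by its brightest probe (-0.04) and not by the further one (3.89). As a share 50% passed, against 41.3% of all named genes (19.3% higher and 22.0% lower), and the median was 0.04. That median was 0.00068 to 0.12 when 1 replicate was left out and 0.21 with the mean of all probes. The ketosteroid reductase gene hsd17b7 gave 1309, 1066 and 1131 in morphants, against 802, 658 and 721 in wild type, a log2 ratio of 0.68 (SE 0.08, adjusted p = 4.7e-04). The desaturase gene sc5d gave 869, 939 and 946 in morphants, against 526, 608 and 634 in wild type, a log2 ratio of 0.64 (SE 0.08, adjusted p = 7.2e-04). In both genes the morphant value was higher on each array. The dehydrogenase gene nsdhl rose by 0.44 (SE 0.10, adjusted p = 0.0111, but 0.0663 without replicate 3). Values of the demethylation gene msmo1 (-0.02), the isomerase gene ebp (0.04) and the ring reductase genes tm7sf2 (-0.06) and lbr (0.03) did not pass. Thus dhcr7 fell while sc5d, which acts beside it in the last steps, rose.

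**Figure D4:**
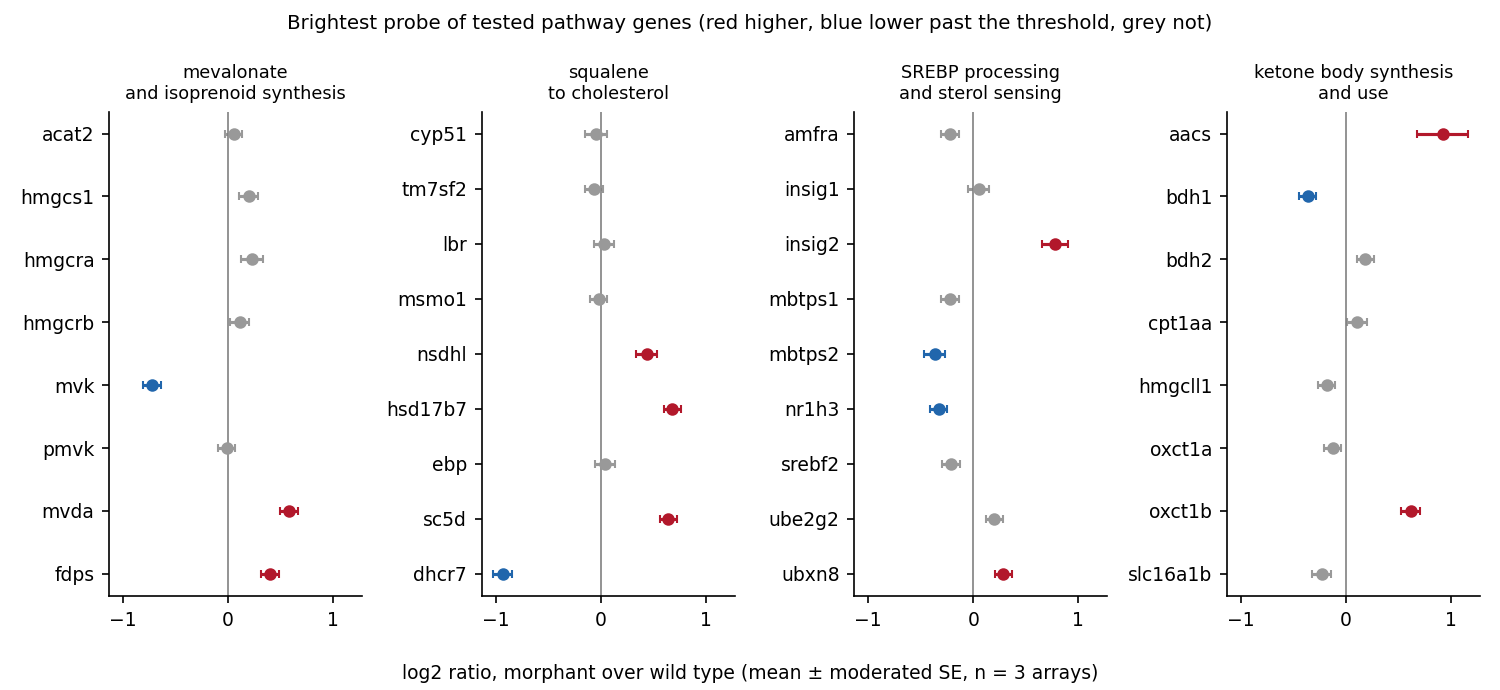
Log2 ratio of morphant over wild type (horizontal axis, mean ± moderated standard error, n = 3 arrays) of the brightest probe of the tested genes reported here in 4 lists, with rises past the threshold in red, falls in blue and the rest in grey. In the first 2 panels genes run in the order of the route, mvk (-0.73) and dhcr7 (-0.93) are the falls, and cyp51 is shown by its brightest probe (-0.04) and not by the further one (3.89).

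The few regulators of the route that passed the test went in both directions. Of 9 tested genes of SREBP processing and sterol sensing 2 rose, 2 fell and 5 did not pass, with a median of -0.21. As a share 44.4% passed, against 41.3% of all named genes. The median was 0.0096 with the mean of all probes, 0.021 with median centring and -0.12 without the filter. With the mean of all probes, Agilent's log ratio or median centring 0 genes fell, and with slide as a block 4 did. Of all 25066 tested probes 4921 fell in the main fit, 4879 with Agilent's log ratio, 306 with median centring and 6157 with slide as a block. Insig proteins hold SREBP in the endoplasmic reticulum and promote breakdown of HMG-CoA reductase. The gene insig2 gave 627, 562 and 568 in morphants, against 282, 399 and 353 in wild type, and its log2 ratio was 0.78 (SE 0.13, adjusted p = 0.00236), while insig1 gave 0.05 (adjusted p = 0.708). The gene ubxn8, of endoplasmic reticulum protein breakdown, rose by 0.29 (adjusted p = 0.0280), a call lost when any replicate was left out. The site protease gene mbtps2, which releases SREBP from the membrane, fell by 0.37 (SE 0.10, adjusted p = 0.0239), although a further mbtps2 probe gave -0.01. The sterol-activated receptor gene nr1h3 fell by 0.33 (SE 0.08, adjusted p = 0.0176), with a further probe at -0.06. Both calls ended in 4 of 12 alternatives, among them mbtps2 without replicate 2 (adjusted p = 0.132) and nr1h3 without replicate 3 (adjusted p = 0.0949). The ubiquitin ligase gene amfra (-0.22) and the ubiquitin-conjugating enzyme gene ube2g2 (0.20) did not pass, and 3 probes of the other site protease gene, mbtps1, gave -0.22, 0.27 and -0.02, none past the threshold.

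Of the ketone body genes other than aacs, only oxct1b passed as higher and only bdh1 as lower. Of 9 tested genes on the list, aacs included, 2 rose, 1 fell and 6 did not pass. That is 33.3% past the threshold, against 41.3% of all named genes, and the median was 0.11. That median was 0.0022 to 0.16 when 1 replicate was left out and -0.013 with marked spots kept, and the fall was lost without replicate 2 or 3. The transferase gene oxct1b, of ketone body use in mitochondria, gave 624, 847 and 867 in morphants, against 410.3, 608 and 509 in wild type. Its log2 ratio was 0.62 (SE 0.09, adjusted p = 0.00136), but its relative oxct1a gave -0.12 and 0.12 with its 2 probes, neither past the threshold. The hydroxybutyrate dehydrogenase gene bdh1 fell by 0.36 (SE 0.08, adjusted p = 0.00906), and a further bdh1 probe fell by 0.38 (adjusted p = 0.00985). The bdh1 call was lost without replicate 2 or replicate 3 (adjusted p = 0.0519 and 0.0525). Values for hmgcll1 (-0.18), bdh2 (0.19), the carnitine palmitoyltransferase gene cpt1aa (0.11) and the monocarboxylate transporter gene slc16a1b (-0.23) did not pass. The mitochondrial thiolase gene acat1 was marked on replicate 1, and its brighter probe gave -0.49 and -1.12 on replicates 2 and 3. Fitted as for lss, acat1 gave -0.81 (n = 2, both on slide 2, adjusted p = 3.4e-05) on those replicates and -0.70 (n = 3, adjusted p = 0.00637) with marked spots kept.

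Genes that handle finished sterol were measured outside the core route. Of 12 tested genes of sterol uptake, transport, storage and efflux 1 rose and 4 fell, with a median of 0.0059. On this list 41.7% passed, where 41.3% of all named genes did. The largest fall was in stard3 (-0.89, SE 0.10, adjusted p = 3.4e-04), which encodes a carrier of cholesterol on late endosomes. Falls were also measured for mylipa (-0.54), whose ligase breaks down the LDL receptor in mammals, for nceh1a (-0.41), of cholesteryl ester breakdown, and for the lipoprotein receptor gene scarb1 (-0.28). The oxysterol-binding protein gene osbp rose by 0.44. The scarb1 call was lost when any replicate was left out, and that of osbp without replicate 3 (adjusted p = 0.0576). On the list of bile acid and oxysterol synthesis 1 of 6 rose and 2 fell (50% passed), with a median of -0.09. The gene cyp7a1, of the rate-limiting step from cholesterol to bile acids, gave 312, 245 and 256 in morphants, against 791, 591 and 652 in wild type. Its log2 ratio was -1.32 (SE 0.08, 2.50-fold lower, adjusted p = 2.0e-05), and this fall passed under all 12 alternatives. The brain cholesterol hydroxylase gene cyp46a1.1 fell by 0.64 and ch25h, of oxysterol synthesis, rose by 0.76.

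Branches that draw on the same precursors were also measured. Of 8 tested genes of acetyl-CoA supply and fatty acid synthesis 3 rose and none fell (37.5% passed), with a median of 0.19. The rises were in the elongase genes elovl5 (0.84) and elovl6 (0.52) and the desaturase gene fads2 (0.36). A further elovl5 probe gave 0.28 (adjusted p = 0.107) and a further fads2 probe 0.15 (adjusted p = 0.177), neither past the threshold. Of 13 genes that use isoprenoids downstream 2 rose, 3 fell and 8 did not pass (38.5% passed), with a median of 0.13. The ubiquinone genes pdss1 (0.42) and coq2 (0.28) rose, and the protein prenylation genes fntb (-0.37), rabggta (-0.27) and fnta (-0.26) fell. The calls of coq2, rabggta and fnta were lost when any replicate was left out, those of fads2 without replicate 2 or 3, and that of fntb without replicate 1 (-0.21) or 2. Over all 8 lists together 31 of 75 tested genes passed, 17 higher and 14 lower, or 41.3%, the same share as among all named genes. With the 10 followed genes left out, 29 of 69 passed, or 42%, 16 higher and 13 lower. Without replicate 3, 11 of the 75 were higher and 9 lower, and without replicate 2, 14 and 8. With median centring 0 were higher and 1 lower. Calls fell over the whole array too. Of all 25066 tested probes 9435 passed in the main fit, 6187 without replicate 3, 7341 without replicate 2 and 715 with median centring.

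Markers of tissues that handle lipid or make up much of the embryo were measured as well, and their part in the values above was not tested. The share past the threshold exceeded that of all named genes clearly on the yolk and liver list and the muscle list only. Of 10 tested genes of the yolk syncytial layer and liver lipoprotein list 6 rose and 1 fell, with a median of 0.37. As a share, 70.0% passed there, 63.6% on the muscle list, 41.7% on the neuronal list and 33.3% on the blood list, where 41.3% of all named genes did (19.3% higher and 22.0% lower). Rises included apoa4b.1 (0.80), apoa4a (0.74), dgat2 (0.74) and apoea (0.65), and apoeb (-0.93) fell. With marked spots kept, other and brighter probes stood for apoa4b.1 (0.14, adjusted p = 0.228), apoeb (0.25) and acta1a (0.17, adjusted p = 0.345). The summed intensity of this list ran from 319814 to 350003 in morphants, against 245026 to 297233 in wild type, and apoa1b was not above background. Muscle genes had 6 rises and 1 fall among 11, led by acta1a (1.18), desma (0.80) and acta1b (0.77, with a further probe at -0.41), against myf5 (-0.57), and their sum was 264756 to 304837 in morphants and 218548 to 228586 in wild type. Neuronal genes had 3 rises, led by dla (0.48), and 2 falls, led by isl2a (-0.51), among 12, with sums of 146970 to 165084 in morphants and 127810 to 133956 in wild type. Blood genes had 3 rises, led by urod (0.49), and 1 fall, hbbe2 (-0.48), among 12, with sums of 156162 to 162894 in morphants and 136530 to 149329 in wild type. A sum weighs bright probes most. Median log2 ratios were 0.27 for muscle, 0.14 for neuronal and 0.045 for blood genes, against -0.00077 over all named genes.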

How the data were processed

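Total RNA of morphant and wild-type embryos, in 3 biological replicates per the labels' descriptions, was labelled with cyanine dyes and hybridised to 3 arrays of Agilent design 019161, per the file headers. The deposited files hold median pixel intensity and background intensity of each spot, processed intensity and the log10 ratio (red over green), written by Feature Extraction version 10.5.1.1 per the file headers (8.5.1.1 per the submitters' processing notes). The deposited value table holds the same log10 ratios with replicate 3 turned (largest difference 4.95e-06, median 0 in each column), so its scale and centring are known, and the direction rests on the dyes in the labels.

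Here median intensities were background-corrected (normexp, offset 50) and loess-normalized within arrays in limma 3.58.1 (R 4.3.3), control and marked spots having weight 0, and replicate 3 was multiplied by -1. The offset pulls ratios of dim probes toward 0. Printed intensities are per channel, with average levels matched between arrays (Aquantile). A probe was tested if well above background on all 3 arrays in either group and unmarked on each. That left 25066 of 28688 probes, and no spot was saturated. Ratios were tested against 0 with lmFit and eBayes, two-sided, and p-values were adjusted by Benjamini-Hochberg across every tested probe. SEs are moderated. The 3 arrays limit precision. In data simulated with these spreads, 100 probes changed 2-fold and 100 changed 4-fold among 25066, and the test recovered 61% and 93% of them. Of the tested probes here 37.6% passed, so the cut on the unadjusted p was looser than in that simulation. The recovered shares therefore do not carry over to these data.

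Probes were named by accession through a RefSeq table of GRCz12tu (16770 of 43603 matched). The build in the headers is an earlier one. Coordinates are therefore left out, and no sequence of the probes, promoters or proteins was used here. The brightest probe stands for a gene.

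Members and gene lists were chosen with earlier results of these data known. The naming rule covered all members, all tested genes of the mevalonate, squalene, SREBP and ketone body lists, up to 4 rises and 4 falls of each other list, and grna. Some genes that the rule names, and 1 marker list, are not reported here, and the counts of the lists include those genes. Alternatives were an offset of 1, Agilent's log ratio, median centring, no filter, a stricter filter, marked spots kept, a dye term, slide as a block, the mean of all probes and leaving out each replicate.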

Additional observations from a re-analysis of the deposited data

How the results depend on the processing

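Median centring in place of loess changed most calls. It left 409 probes higher and 306 lower, 0 member genes in each direction, and 0 higher and 1 lower among the 8 pathway lists. Their median was then 0.21 and that of the members 0.23. At this setting dhcr7 (-0.75 and, for the further probe, -0.78) and aacs (1.07) lost their calls, cyp51 by its brightest probe gave 0.11 and srebf2 0.021. The single-gene results tested over 3 arrays were 75 in number, a different set from the 75 tested pathway genes. They cover members, their further probes, grna, and pathway and marker genes, most of them named for having passed in the main fit. Of these 75 results, 64 lost a call with median centring. Some of the others, such as hmgcra, hmgcs1 and srebf2, had no call to lose. The cause of the lost calls was not tested. Leaving out each replicate gave 2775 to 3875 probes higher and 3412 to 4358 lower, the lowest without replicate 3, and 0 to 2 member genes higher. Over the same fits aacs ranged from 0.47 to 1.16, hmgcra from 0.12 to 0.35, and the brightest cyp51 probe from -0.19 to 0.045. The member median ranged from 0.029 to 0.11, and the pathway lists had 11 to 16 genes higher, 8 to 10 lower and a median of 0.077 to 0.083. With a dye term 0 member genes were higher (aacs 0.81). With slide as a block the further aacs probe passed (0.50) and the brightest cyp51 probe gave 0.027. The mean of all probes gave cyp51 1.92, 2 member genes higher and a median of 0.21. With marked spots kept 2 member genes were also higher, through lss, with a median of 0.19, where another apoeb probe was the brightest and gave 0.25. Taking the probe with the largest change, chosen after seeing the data, gave 2 as well. Without the filter ldlra entered and the member median was -0.045. Agilent's log ratio gave 9 pathway genes lower and a median of 0.086. The test is itself paired, since each ratio sets morphant against wild type on 1 array, and no further replicate block could be added.

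Dim probes limit what can be read: ldlra has no usable ratio, and the log2 ratio of the further cyp51 probe was 4.53 with an offset of 1 in place of 3.89 with an offset of 50.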

Other observations

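Of the isoprenoid genes marked on replicate 1, pdss2, of ubiquinone synthesis, gave 0.71 and 1.21 on replicates 2 and 3, and icmt, of prenyl protein methylation, gave -0.51 and -0.26. They were not tested over 3 arrays without marked spots, and dhdds and nus1 lay within 0.13 of 0 on both arrays.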
